A study of Mus musculus with 4 samples.

Results

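The Reg genes encode small secreted proteins, and 6 of them (Reg1, Reg2, Reg3a, Reg3b, Reg3d and Reg3g) were taken by symbol from the 31053 genes of a single-cell RNA data set of the mouse pancreas. All 6 were counted in all 4 libraries, and Reg3a and Reg3g had too few UMIs to be compared at 6 weeks. The libraries came from wild-type C57BL/6 mice given saline or caerulein, a peptide related to cholecystokinin whose overdose injures acinar cells and sets off pancreatitis. They were C2D (caerulein, 2 days of recovery), S2D (saline, 2 days), C6W (caerulein, 6 weeks of recovery) and S6W (saline, 6 weeks). Each group was 1 library of DAPI-negative sorted pancreatic cells, with no statement of how many animals it held or of their age. Differences could therefore not be tested against variation between animals, and every interval below is an exact 95% interval that covers counting error only.

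Reg proteins are C-type lectin-like proteins that acinar cells release with the digestive enzymes. Reg1 and Reg2 belong to the subfamily of pancreatic stone protein and were named for their link to islet regeneration. The Reg3 proteins are acute-phase products of the injured pancreas and of the gut epithelium: Reg3b is the mouse pancreatitis-associated protein, and Reg3g is a lectin that kills Gram-positive bacteria in the mouse intestine. Cytokines that signal through gp130 or the IL-22 receptor and activate STAT3 are known inducers of Reg3b and Reg3g.

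The 6 genes lay side by side on chromosome 6. In GENCODE vM21 (mm10) the run from Reg3b to Reg3g spanned chr6:78370657-78468872, or 98.2 kb, and held no other annotated gene. The order was Reg3b (start 78370657, end 78373466, plus strand), Reg3d (start 78375874, end 78378865, minus strand), Reg3a (start 78380709, end 78383827, plus strand), Reg2 (start 78395623, end 78408106, plus strand), Reg1 (start 78422711, end 78428667, plus strand) and Reg3g (start 78466269, end 78468872, minus strand). No member overlapped another gene. Reg1 and Reg2 were the most alike pair by transcript, with 78.9% identity over 674 aligned bases, followed by Reg3a with Reg3b at 75.5% and Reg3b with Reg3g at 74.4%. The longest exact run shared by any pair of transcripts was 35 bases (Reg3b and Reg3g), and within the last 300 bases, where the 3′ assay reads, it was 22 bases.

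The promoter windows of 4 members are printed because these genes carried most Reg UMIs and moved in different ways: Reg3b, Reg3g and Reg2 had far more UMIs in C2D, whereas Reg1 was abundant in all libraries. Each window runs 5′ to 3′ from 250 bases before to 50 bases after the RefSeq start (GRCm38.p6), and capitals mark matches to 4 motifs searched on both strands.
Reg3b, chr6:78370635-78370934, plus strand: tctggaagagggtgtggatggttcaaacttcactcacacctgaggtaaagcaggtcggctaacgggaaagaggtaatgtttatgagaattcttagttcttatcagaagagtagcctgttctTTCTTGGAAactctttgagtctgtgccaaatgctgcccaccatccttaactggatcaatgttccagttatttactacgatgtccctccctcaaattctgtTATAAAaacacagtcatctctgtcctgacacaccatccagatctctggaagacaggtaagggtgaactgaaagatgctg
Reg3g, chr6:78468825-78469124, minus strand: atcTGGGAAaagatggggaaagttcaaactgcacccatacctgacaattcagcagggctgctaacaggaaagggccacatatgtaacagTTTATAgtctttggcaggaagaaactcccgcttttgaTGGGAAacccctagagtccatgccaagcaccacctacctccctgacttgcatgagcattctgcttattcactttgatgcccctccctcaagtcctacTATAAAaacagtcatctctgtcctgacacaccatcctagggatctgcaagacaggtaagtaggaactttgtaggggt
Reg2, chr6:78404905-78405204, plus strand: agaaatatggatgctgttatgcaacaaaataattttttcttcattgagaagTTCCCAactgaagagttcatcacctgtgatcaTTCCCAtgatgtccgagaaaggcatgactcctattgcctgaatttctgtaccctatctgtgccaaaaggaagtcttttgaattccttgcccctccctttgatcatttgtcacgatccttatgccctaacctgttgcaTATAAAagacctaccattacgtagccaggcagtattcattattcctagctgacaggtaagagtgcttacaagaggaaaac
Reg1, chr6:78425733-78426032, plus strand: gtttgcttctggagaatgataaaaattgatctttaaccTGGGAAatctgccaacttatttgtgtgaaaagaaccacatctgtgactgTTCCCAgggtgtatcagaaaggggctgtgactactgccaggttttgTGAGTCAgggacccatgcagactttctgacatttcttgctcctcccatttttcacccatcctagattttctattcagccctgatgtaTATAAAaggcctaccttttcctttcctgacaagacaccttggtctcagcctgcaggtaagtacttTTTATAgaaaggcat
The TATA box letters TATAAA stood 30 bases before the start in Reg1 and Reg2, 29 bases before it in Reg3b and 27 bases before it in Reg3g. Counting any place and strand, TATAAA was present in 13.6% of 32851 promoter windows of the same length. The STAT letters TTCNNNGAA occurred in Reg3b (TTCTTGGAA, 129 bases before the start) and in Reg3d (TTCCCAGAA, 238 bases before it), and in 8.3% of all windows. The AP-1 letters TGANTCA occurred in Reg1 (TGAGTCA, 117 bases before the start) and in 7.81% of all windows. TGGGAA, the letters of RBPJ-type sites, occurred in Reg1, Reg2, Reg3a, Reg3d and Reg3g, and in 25.6% of all windows, and its reverse match in Reg3d overlapped the TTCNNNGAA match. These matches are descriptions of letters, and a window without a match says nothing of what binds there. The windows of Reg3b and Reg3g were 71.4% identical over 294 aligned bases, those of Reg3a and Reg3g 73.9% over 249, and those of Reg1 and Reg2 67.2% over 274.

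After filtering there were 4637 C2D, 3308 S2D, 2741 C6W and 2017 S6W cells, with median depths between 8324 and 14051 UMIs (unique molecular identifiers, 1 for each captured RNA molecule). Acinar-like cells numbered 771 in C2D, 433 in S2D, 364 in C6W and 449 in S6W. All 16 acinar markers, Ptf1a, Rbpjl and Bhlha15 among them, were detected in each library. Clustering left the Reg genes out, and the acinar-like cells of C2D fell into other clusters than the rest: cluster 5 held 305 and cluster 7 held 464 of them, whereas cluster 33 held 412 S2D, 347 C6W and 439 S6W cells. The genes of 39 digestive enzymes and cofactors took a median of 45.5% of an acinar-like cell's UMIs in C2D, against 86.4% in S2D, and 82.0% in C6W against 84.5% in S6W. Among acinar-like cells, 3 in C2D, 2 in S2D, 4 in C6W and 18 in S6W had a barcode that another library also held. Of these, 3 in C6W and 4 in S6W were shallow (511 to 602 UMIs) and had at least 10 times as many UMIs under the same barcode elsewhere. Others were deep, namely 3 in C2D (155106 to 161897 UMIs), 1 in S2D (254404 UMIs) and 12 in S6W (111394 to 334887 UMIs). The levels and ratios that moved most without the cells of shared barcodes are given beside the values with them.

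Reg transcripts took a larger share of acinar-like RNA 2 days after caerulein than in the other libraries. The 6 genes together took 6.39% of acinar-like UMIs in C2D against 1.16% in S2D, and 1.03% in C6W against 1.04% in S6W. Reg1 led in every library. The UMI is not divided by transcript length, since the 3′ assay gives 1 tag per molecule, and the longest coding transcripts of the 6 genes were 698 to 904 bases long.

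Reg1 had 514.7 UMIs per acinar-like cell in C2D (513.1 to 516.3), 141.6 in S2D (140.4 to 142.7), 101.7 in C6W (100.7 to 102.7) and 176.7 in S6W (175.5 to 177.9). It was highest in C2D and lowest in C6W. Its median cell had 323, 51, 65 and 79 UMIs in the same order, so that C6W was not the lowest library by the median. Without the cells whose barcode another library held, Reg1 had 500.9 UMIs per cell in C2D, 133.9 in S2D, 102.5 in C6W and 125.3 in S6W, so that S6W stood below S2D.

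Reg2 had 99.6 UMIs per cell in C2D (98.9 to 100.3), 2.67 in S2D (2.51 to 2.82), 1.21 in C6W (1.10 to 1.33) and 1.18 in S6W (1.08 to 1.28). C2D stood apart, S2D came next, and the intervals of C6W and S6W overlapped. The median C2D cell had 38 UMIs of Reg2, and the median cell of the other 3 libraries had 0.

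Reg3b, the pancreatitis-associated protein, had 191.2 UMIs per cell in C2D (190.2 to 192.2), 1.81 in S2D (1.69 to 1.94), 0.525 in C6W (0.453 to 0.605) and 0.361 in S6W (0.307 to 0.421). It was the second most abundant member in C2D and the third in S2D, and it ranked below Reg3d in C6W and S6W. The median C2D cell had 114 UMIs of it, with quartiles of 21 and 252.5, and the median cell elsewhere had 0.

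Reg3g, the bactericidal lectin, had 16.9 UMIs per cell in C2D (16.6 to 17.2), 0.254 in S2D (0.209 to 0.306), 0.129 in C6W (0.0949 to 0.172) and 0.0891 in S6W (0.0636 to 0.121). The intervals of the 6-week libraries overlapped. Reg3a was also highest in C2D, at a lower level, with 5.73 in C2D (5.57 to 5.91), 0.0924 in S2D (0.0660 to 0.126), 0.0632 in C6W (0.0401 to 0.0948) and 0.0690 in S6W (0.0469 to 0.0980), and its intervals in S2D, C6W and S6W overlapped. Without shared barcodes its S6W level was 0.0418. Reg3d had 3.46 UMIs per cell in C2D (3.33 to 3.60), 1.36 in S2D (1.25 to 1.47), 1.16 in C6W (1.06 to 1.28) and 2.06 in S6W (1.93 to 2.19). Its libraries lay much closer together than those of the other Reg3 genes, and its S6W level was 1.48 without shared barcodes.

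**Figure D1:**
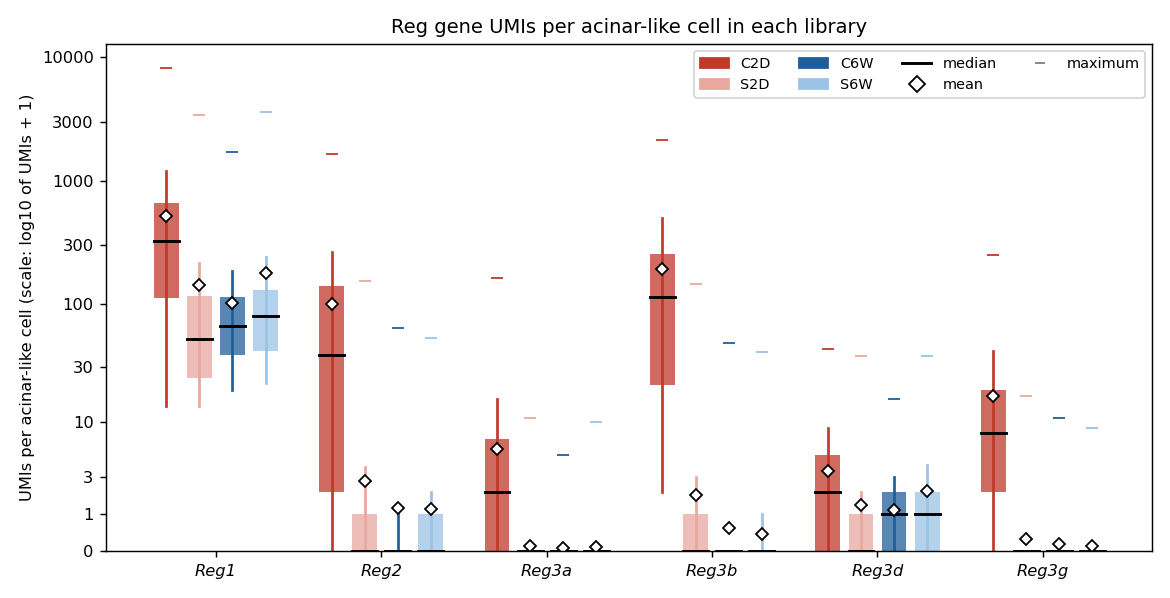
UMIs per acinar-like cell (y axis, log10 of UMIs + 1) for each Reg gene in the libraries C2D, S2D, C6W and S6W. Boxes span the quartiles, thin lines the 10th to 90th percentiles, black bars are medians, diamonds means and dashes the highest count of the gene in any cell. The medians of Reg2, Reg3a, Reg3b and Reg3g are 38, 2, 114 and 8 in C2D and 0 in the other 3 libraries, where the means are above the medians.

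Most C2D acinar-like cells carried several Reg transcripts. Reg3b had a UMI in 96.8% of C2D cells (95.3 to 97.9), against 30.3% in S2D (26.0 to 34.8), and in 9.89% of C6W cells (7.02 to 13.4) against 12.7% in S6W (9.76 to 16.1). Reg2 had one in 87.8% of C2D cells (85.3 to 90.03) against 34.6% in S2D (30.2 to 39.3), and in 16.2% of C6W cells (12.6 to 20.4) against 26.9% in S6W (22.9 to 31.3). Reg1 was found in all C2D and C6W cells and in 99.5% of S2D and 99.8% of S6W cells.

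Shares of cells depend on depth and on free RNA. T-like cells, which should make no Reg protein, had a UMI of Reg3b in 59.0% of C2D and 4.95% of S2D cells, and of Reg2 in 42.0% and 9.89%, at median depths of 5403 and 6073 UMIs. The acinar-like median depths were 8742 in C2D and 6436 in S2D. For a common depth, each cell was thinned to 1000 UMIs, which left out 33, 12, 6 and 9 shallower acinar-like cells of C2D, S2D, C6W and S6W. Reg3b then had a UMI in 88.2% of C2D against 10.2% of S2D acinar-like cells, and in 2.79% of C6W against 1.82% of S6W. Reg2 had one in 71.3% of C2D against 10.7% of S2D cells, and in 5.31% of C6W against 4.77% of S6W. Thinned T-like cells had Reg3b in 14.0% of C2D and 1.10% of S2D cells, and Reg2 in 9% and 1.10%. Acinar-like shares of Reg2 and Reg3b at 2 days were thus well above those of T-like cells, whereas at 6 weeks the thinned intervals of C6W and S6W overlapped for both genes.

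The rarer members followed the same split. At 1000 UMIs, Reg3g was found in 55.8% of C2D against 2.61% of S2D acinar-like cells, and Reg3a in 29.4% against 0.950%. Reg3d was found in 23.4% of C2D, 9.74% of S2D, 12.8% of C6W and 11.4% of S6W cells, and Reg1 in 97.7 to 99.7% of cells of every library.

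**Figure D2:**
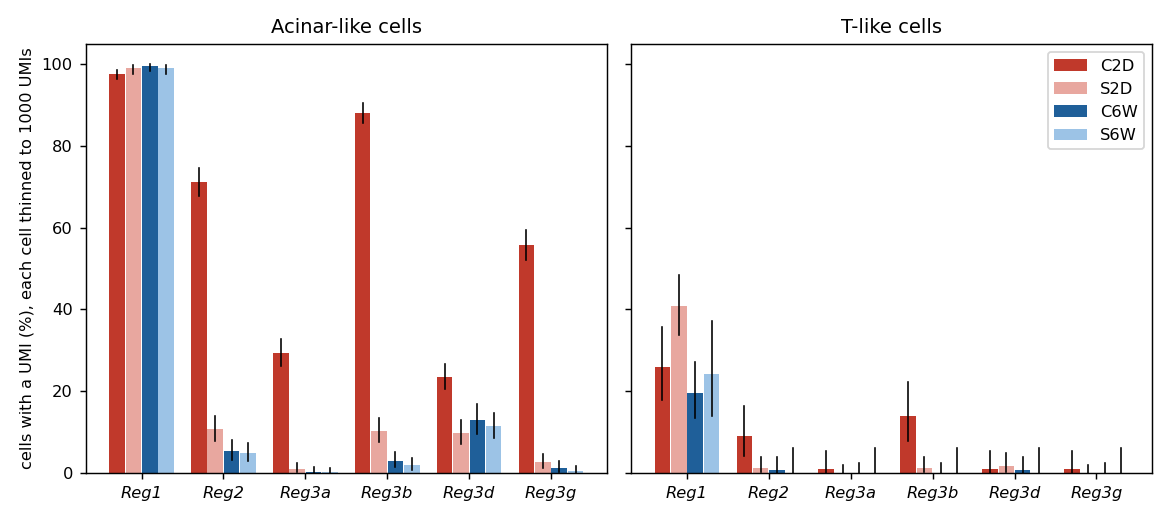
Percent of cells with at least 1 UMI of each Reg gene after thinning every cell to 1000 UMIs, in acinar-like (left) and T-like cells (right) of C2D, S2D, C6W and S6W; black lines are exact 95% binomial intervals. Reg3b reaches 88.2% of C2D acinar-like cells against 10.2% in S2D, and 14.0% of C2D T-like cells against 1.10% in S2D.

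To compare libraries, UMIs were summed over acinar-like cells and scaled by TMM (trimmed mean of M-values, which sets the bulk of genes near no change). A gene with at least 100 UMIs over both libraries was compared, and a ratio of 2-fold or more was called higher or lower. In C2D over S2D, 4 of 6 Reg genes were higher and 0 lower, beside 21.4% of all 5152 genes higher and 11.2% lower. The median log2 ratio of the 6 was 3.26, against 0.24 for all genes. Reg3b was 21.0-fold higher (log2 4.39, 4.29 to 4.49), Reg3g 13.2-fold (3.72, 3.45 to 4.01), Reg3a 12.3-fold (3.63, 3.18 to 4.11) and Reg2 7.44-fold (2.89, 2.81 to 2.98). Of the 5152 genes, 20 had a higher ratio than Reg3b, 46 than Reg3g, 58 than Reg3a and 112 than Reg2. Over 20 other settings the log2 ratio lay between 3.50 and 6.69 for Reg3b, 2.47 and 6.02 for Reg3g, 1.89 and 5.92 for Reg3a, and 1.03 and 5.19 for Reg2, lowest with the C2D cells of cluster 7 alone and highest with plain CPM.

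Reg1 and Reg3d did not follow them. Reg1 was at log2 -0.47 (-0.48 to -0.45) and Reg3d at -0.98 (-1.11 to -0.85) with TMM, but at 1.83 and 1.32 with plain CPM (each class total set to the same size). The sign of both genes thus depended on the scaling, which moved the median of all genes to 2.54 with plain CPM. Relative to the median of all genes, which no scaling alters, Reg1 stood at -0.71 and Reg3d at -1.22, and Reg2, Reg3a, Reg3b and Reg3g at 2.65, 3.38, 4.15 and 3.48. Reg1 was also at 0.73 with cells thinned to 1000 UMIs and at 0.54 with each cell weighted equally. In UMIs per cell all 6 were higher in C2D, Reg1 3.64-fold and Reg3d 2.55-fold, against 37.4-fold for Reg2 and 105.5-fold for Reg3b. Plain CPM called 6 of 6 members higher, beside 92.3% of all genes, and 0 lower, beside 0.97%.

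Several digestive enzymes of the same cells were lower, though not all of them by UMIs per cell or plain CPM. Cela1, a pancreatic elastase, had 80.3 UMIs per cell in C2D against 830.7 in S2D (log2 -5.70 with TMM, -3.40 with plain CPM). Prss2, a trypsinogen, had 572.8 against 900.3 (-2.98 with TMM, -0.69 with plain CPM). Ctrb1, a chymotrypsinogen named here after its values were seen, had 1847 UMIs per cell in C2D against 1713 in S2D, and 141987 against 134766 CPM. TMM multiplied the C2D total by 2.22 and the S2D total by 0.451, so that with TMM Ctrb1 too was lower in C2D. Set against the 39 digestive genes together, Reg1 had 94.7 UMIs per 1000 digestive UMIs in C2D and 12.9 in S2D, Reg3b 35.2 and 0.165, and Reg2 18.3 and 0.243.

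Markers of other cells differed between the same libraries. The 12 ductal markers, all detected in C2D and 10 in S2D, summed to 1152 CPM of acinar-like UMIs in C2D and 128.7 CPM in S2D (Tspan8 and Slc4a4 at 0), and the 11 macrophage markers, all detected in C2D and 8 in S2D, to 285.6 and 6.54 CPM (Mrc1, Ccr2 and Fcgr3 at 0). Median genes per acinar-like cell were 1194 in C2D and 447 in S2D, and median mitochondrial UMIs 0.029% and 0.215%. The part of these differences in the Reg ratios was not tested.

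**Figure D3:**
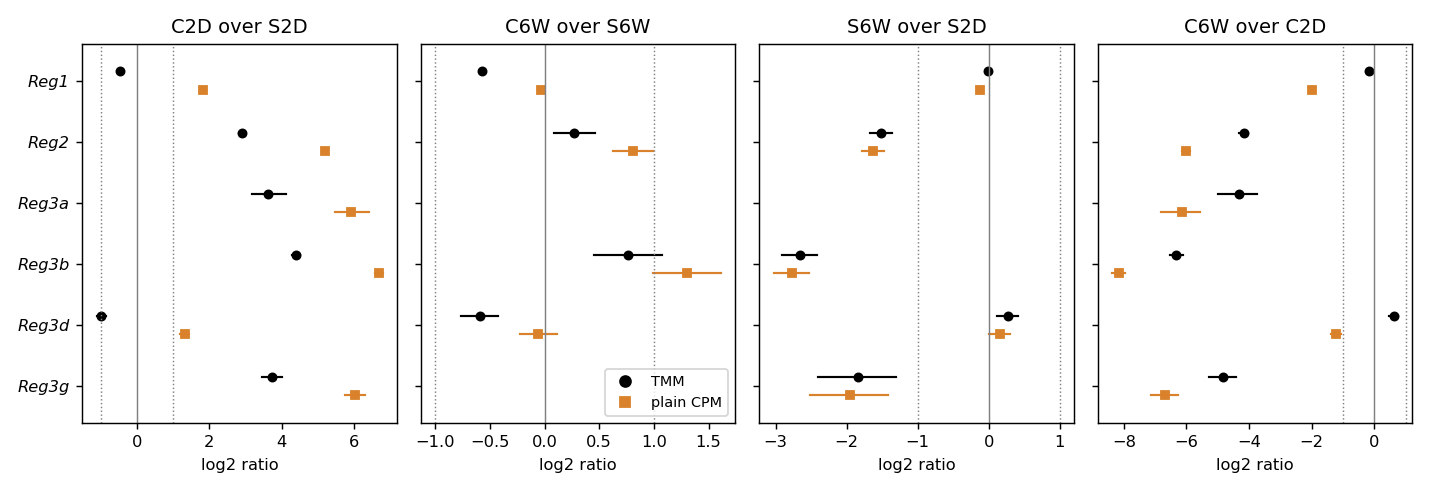
Log2 ratio of each Reg gene in acinar-like cells for C2D over S2D, C6W over S6W, S6W over S2D and C6W over C2D (x axes, each with its own range), with TMM (black circles) and plain CPM (orange squares); lines are exact 95% counting intervals and dotted lines mark 2-fold. Reg2, Reg3a, Reg3b and Reg3g lie right of 2-fold in C2D over S2D under both scalings, whereas Reg1 and Reg3d change sign between them.

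Within C2D, Reg levels differed between the 2 acinar-like clusters. Cluster 5 (305 cells) was led, besides Reg genes, by the trypsinogens Prss3 and Try5, and digestive genes took 56.5% of its UMIs. Cluster 7 (464 cells) was led, besides Reg3b and Reg1, by Try5, Clu, the keratins Krt8 and Krt18, the stress gene Nupr1 and Spink1. Digestive genes took 33.3% of its UMIs. Unnamed genes (Gm and Rik) that led both clusters are left out here. Ductal markers stood at 389.3 CPM in cluster 5 and 1590 CPM in cluster 7.

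Every Reg gene was higher per UMI in cluster 5, by differing amounts. Reg2 had 162.0 UMIs per 10000 in cluster 5 (160.7 to 163.3) and 27.5 in cluster 7 (27.1 to 27.9), and Reg3a 9.09 (8.78 to 9.41) and 1.73 (1.63 to 1.83). Reg3b had 223.0 (221.5 to 224.5) and 103.4 (102.6 to 104.2), Reg3g 23.2 (22.7 to 23.7) and 7.10 (6.90 to 7.31), and Reg3d 4.96 (4.74 to 5.20) and 1.34 (1.26 to 1.44). Reg1 had 547.9 (545.5 to 550.3) and 308.3 (307.0 to 309.7). Per 1000 digestive UMIs the clusters lay closer, with Reg1 at 96.9 in cluster 5 and 92.5 in cluster 7, and Reg3b at 39.4 and 31.0. On that scale Reg2 had 28.6 and 8.25, Reg3a 1.61 and 0.519, Reg3g 4.10 and 2.13, and Reg3d 0.878 and 0.403. Cluster 5, with 39.6% of the C2D acinar-like cells, held 77.0% of the Reg2 and 75.1% of the Reg3a UMIs, but 55.2% of those of Reg3b and 50.4% of those of Reg1. Reg2 was found in 99.7% of cluster 5 and 80.0% of cluster 7 cells, and Reg3b in 100% and 94.6%.

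Set against all S2D acinar-like cells, each cluster alone gave a different size. With cluster 5 alone, the log2 ratios ran from 0.999 for Reg3d and 1.08 for Reg1 to 5.05 for Reg2 and 6.07 for Reg3b. With cluster 7 alone Reg1 stood at -1.22, Reg3d at -2.35, Reg2 at 1.03 and Reg3b at 3.50. TMM multiplied the C2D and S2D totals by 1.53 and 0.656 with cluster 5, and by 2.54 and 0.394 with cluster 7. Part of the gap between these ratios thus came from the scaling. In cluster 33 of S2D, Reg2 had 2.11 UMIs per 10000 and Reg3b 1.36, both below cluster 7 of C2D. Reg1 had 308.3 UMIs per 10000 in cluster 7 of C2D and 111.8 in cluster 33 of S2D, and Reg3d 1.34 and 1.07. The signs of Reg1 and Reg3d with cluster 7 therefore depended on the scaling.

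**Figure D4:**
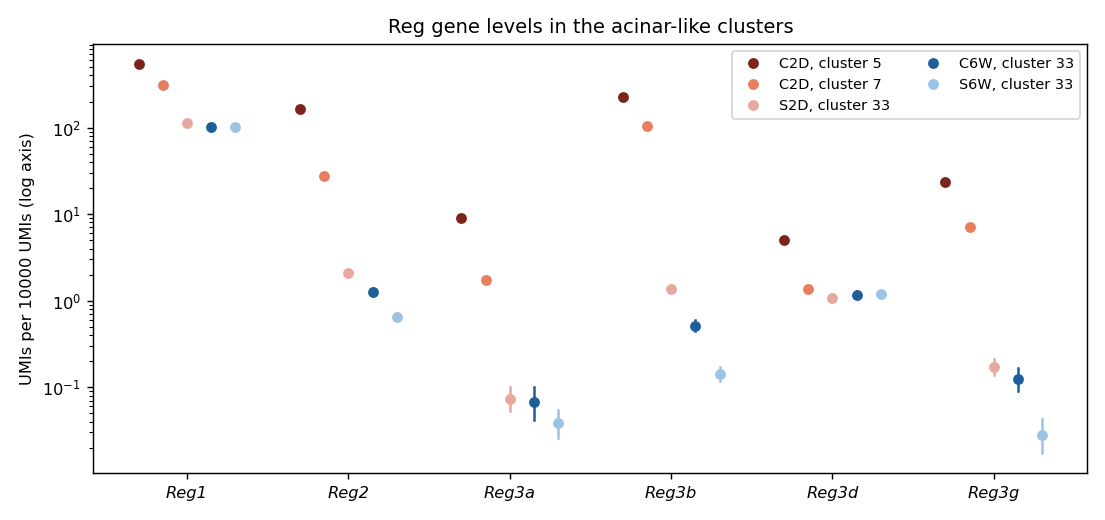
UMIs of each Reg gene per 10000 UMIs (log axis) in clusters 5 and 7 of C2D and in cluster 33 of S2D, C6W and S6W; lines are exact 95% Poisson intervals. Reg2 stands at 162.0 in cluster 5, 27.5 in cluster 7 and 2.11 in S2D, and Reg1 and Reg3d span smaller ranges than the other 4 genes.

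The Reg genes were found together in C2D cells. Thinned to 2000 UMIs, 162 of 714 C2D cells (22.7%) had a UMI of all 6 genes and a further 182 (25.5%) of 5, while in S2D 249 of 405 cells (61.5%) had 1 gene and none had more than 4. Among Reg2-positive cells, Reg3b was found in 98.8% in C2D against 32.4% in S2D, and in 27.3% in C6W against 12.9% in S6W. Among Reg2-negative cells, it was found in 71.6% in C2D against 9.58% in S2D, and in 1.52% in C6W against 2.77% in S6W. Across the 714 C2D cells Spearman's rho was 0.79 for Reg1 with Reg3b, 0.68 for Reg2 with Reg3b and 0.31 for Reg3d with Reg3g. These are cells of 1 library at a common depth, and the values are descriptions.

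The same cells give the genes that ran with and against the Reg genes, out of 370 genes ranked. Reg3b went highest with Reg1 (rho 0.79), Reg2 (0.68) and Reg3g (0.59), then with the chymotrypsinogen Ctrb1 and the carboxypeptidase Cpb1 (0.59 each), and lowest with Nupr1 (-0.49), the ferritin chain Ftl1 (-0.48), Tmsb10 (-0.44), Eif1 (-0.40) and Hsp90ab1 (-0.39). Reg2 went highest with the ribonuclease Rnase1 and the zymogen granule protein Zg16 (0.74 each), the chymotrypsin-like Ctrl (0.71), Reg3b (0.68) and the lipase Cel (0.65), and lowest with Nupr1 (-0.58), Ftl1 (-0.56), Eif1 (-0.55), Tmsb10 (-0.53) and Krt18 (-0.52). With the summed digestive genes the rho was 0.68 for Reg2, 0.57 for Reg3b and 0.37 for Reg3d, and with the ductal markers -0.48, -0.37 and -0.30. In S2D, C6W and S6W the rho of Reg2 with the digestive sum was between -0.19 and -0.07, where most cells had no Reg2 UMI. Reg1, which most cells of every library carried, also changed sign with the digestive sum. Its rho was 0.59 in C2D, -0.36 in S2D, -0.35 in C6W and -0.45 in S6W. The cause of these differences in sign was not tested.

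High levels of Reg2 and Reg3b were common in C2D cells and rare in S2D cells. In C2D 480 of 771 cells (62.3%) had at least 10 UMIs of Reg2 and 622 (80.7%) of Reg3b. In S2D, 21 of 433 cells (4.85%) had at least 10 UMIs of Reg2, and they held 74.96% of its Reg2 UMIs. Of these, 18 also had Reg3b, and all 21 lay in cluster 33, away from the C2D clusters. At least 10 UMIs of Reg3b were found in 17 S2D cells, which held 66.9% of its Reg3b UMIs and all had Reg2. The S2D cells with 10 or more Reg2 UMIs were deeper than the library, with a median of 14195 UMIs against 6436, and digestive genes took 87.0% of their UMIs.

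At 6 weeks the libraries were close. In C6W over S6W, 0 of the 4 Reg genes with enough UMIs were higher or lower, beside 2.23% of all 1482 genes higher and 1.21% lower. Reg3b stood at log2 0.77 (0.46 to 1.08), on 191 and 162 UMIs, and Reg2 at 0.27 (0.09 to 0.46). Reg1 was at -0.57 (-0.59 to -0.55) and Reg3d at -0.59 (-0.76 to -0.43). Reg3a, with 54 UMIs over both libraries, and Reg3g, with 87, were too rare to compare. The median of all genes was -0.22, and relative to it Reg3b stood at 0.99, Reg2 at 0.49, Reg1 at -0.35 and Reg3d at -0.37. Plain CPM gave 1.304 for Reg3b, past 2-fold, 0.81 for Reg2, -0.03 for Reg1 and -0.06 for Reg3d, and 1 of 4 higher beside 6.75% of all genes.

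The Reg3b value at 6 weeks rested on few cells. In C6W 7 of 364 acinar-like cells had at least 10 UMIs and held 62.8% of its Reg3b UMIs, and in S6W 3 of 449 held 39.5%. The thinned shares, 2.79% in C6W and 1.82% in S6W, had overlapping intervals (1.35 to 5.08 and 0.788 to 3.55). For Reg2, 10 C6W cells held 78.5% and 15 S6W cells 61.7%, and 4 of these 15 had a barcode that another library also held. Without any cell whose barcode another library held, Reg3b stood at 0.66, Reg2 at 0.31 and Reg1 at -0.29.

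The saline libraries differed more from each other in Reg3b and Reg2 than C6W did from S6W. In S6W over S2D, 3 of 5 Reg genes were lower and 0 higher, beside 1.67% of all 1560 genes lower and 0.962% higher. Reg3b stood at -2.66 (-2.92 to -2.42), Reg3g at -1.84 (-2.41 to -1.31) and Reg2 at -1.51 (-1.67 to -1.36), while Reg1 was at -0.01 and Reg3d at 0.27. Reg3a, with 71 UMIs, was not compared. Of the 1560 genes, 1558 had a higher ratio than Reg3b. Without any cell whose barcode another library held, Reg3b was at -2.60 and Reg2 at -1.56. With S2D in place of S6W as the control, Reg3b of C6W stood at -1.88 and Reg2 at -1.23, opposite in sign to their values over S6W. Recovery time and library cannot be told apart in these saline samples.

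Between the caerulein libraries, C6W over C2D, 4 of 6 Reg genes were lower and 0 higher, beside 21.9% of 5121 genes lower and 9% higher. Reg3b stood at -6.32, Reg3g at -4.84, Reg3a at -4.32 and Reg2 at -4.17, and 5119, 5114, 5106 and 5102 of the 5121 genes had a higher ratio. Reg1 was at -0.15 and Reg3d at 0.61 with TMM, but at -1.99 and -1.22 with plain CPM. This comparison shares C2D with the ratio at 2 days and C6W with that at 6 weeks.

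Across 31 sums of a cell class and a library, the Reg genes split along the same line. The genes most like Reg1 by Pearson's r of log2(CPM + 1), of 11649 ranked, were Try5 (0.99), Spink1, Prss3 (0.95 each), Try10 and Arhgdig (0.94 each). Those most like Reg3d were Erp27 (0.95), Try5, Spink1 (0.94 each), Ctrb1 and Pnliprp1 (0.93 each). For Reg2 they were Prss1 (0.81), Serpina10 (0.80), Prss3 (0.77), Tdh (0.75) and Try5 (0.72), and for Reg3b Prss1, Serpina10 (0.76 each), Tdh (0.74), Anxa10 (0.67) and Gkn3 (0.65). Reg3a and Reg3g shared their 5 genes, Prss1 (0.88 and 0.83), Serpina10 (0.85 and 0.80), Tdh (0.82 and 0.79), Anxa10 (0.81 and 0.77) and Tspan1 (0.79 and 0.73). Ranked by Spearman's rho instead, 3 of the 5 genes stayed among the top 5 for Reg1, 2 for Reg3b and 4 for each other member. Reg3a and Reg3g then no longer shared all 5. Among the members, pairs of Reg2, Reg3a, Reg3b and Reg3g lay between 0.92 (Reg2 with Reg3a) and 0.97 (Reg2 with Reg3b), and Reg1 with Reg3d reached 0.94. Pairs across these groups lay between 0.52 (Reg3b with Reg3d) and 0.78 (Reg1 with Reg2). The sums share libraries and free RNA, and trypsinogens have near-identical copies whose counts are uncertain.

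Reg UMIs were also counted in other cell classes, most of all in C2D. Ductal-like cells had 4.30 UMIs of Reg3b per cell in C2D against 0.0767 in S2D, macrophage-like cells 4.58 against 0.116, fibroblast-like cells 3.81 against 0.0613 and T-like cells 3.40 against 0.0495. All of these levels were low beside the 191.2 UMIs of C2D acinar-like cells. Acinar-like cells held 90.6 to 92.0% of each member's UMIs in C2D, and 91.7% of the digestive UMIs. In S2D they held 79.3 to 93.0% of the Reg UMIs of each gene and 88.4% of the digestive UMIs.

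Reg2 and Reg3b were also higher in C2D than in S2D in the 5 other classes where they could be compared. In ductal-like cells, C2D over S2D, Reg3b stood at log2 4.48 (4.10 to 4.89) and Reg2 at 2.68 (2.35 to 3.02), so that 2 of 3 compared members were higher beside 4.98% of all genes, and Reg1 at 0.25, against -0.47 in acinar-like cells. In fibroblast-like cells 3 of 4 were higher beside 9.41%, in macrophage-like cells 5 of 6 beside 13.6% (all but Reg1, with Reg3d at 1.14, -0.74 to 4.19), in T-like cells 2 of 3 beside 2%, and in dendritic-like cells 2 of 3 beside 5.96%. Of the macrophage-like calls, those of Reg3a and Reg3g rested on 0 UMIs in S2D, for which 3 counts stood in, and that of Reg3d on 2. In NK-like cells Reg1 alone had enough UMIs, at -0.47. At 6 weeks Reg1 alone could be compared outside acinar-like cells, and C6W over S6W lay between -0.52 and 0.06.

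Free RNA from acinar cells would bring Reg and digestive UMIs in the acinar-like proportion. In C2D ductal-like cells Reg1 UMIs were 1.01 times the number that proportion gives (0.97 to 1.06), Reg2 0.91 times (0.81 to 1.01) and Reg3b 1.02 times (0.95 to 1.10). In C2D, ductal-like cells thus had no Reg UMIs beyond the acinar-like proportion that counting error could resolve. In S2D they stood above it, at 1.29 times for Reg1 (1.24 to 1.33), 2.20 times for Reg2 (1.76 to 2.71) and 2.01 times for Reg3b (1.51 to 2.61), as B-like cells did at 1.297, 1.94 and 1.93 times. At 6 weeks Reg1 in ductal-like cells was at 1.202 times in C6W (1.14 to 1.27) and 1.38 times in S6W (1.28 to 1.48). In fibroblast-like cells of C2D the values were 1.13 for Reg1, 0.73 for Reg2 and 1.16 for Reg3b, and in macrophage-like cells 0.92, 1.08 and 1.13. Reg3b was at 1.68 times in T-like cells (1.51 to 1.87), and Reg2 at 1.73 times in dendritic-like cells (1.58 to 1.89), so the proportion was not the same in all classes. Against the T-like and B-like cells of C2D, Reg3b in ductal-like cells was at 0.61 times (0.54 to 0.70) and Reg2 at 0.74 (0.61 to 0.91). Against the T-like and B-like cells of S2D, ductal-like cells of S2D stood at 0.99 for Reg1, 1.10 for Reg2 and 1.08 for Reg3b, with intervals that include 1. Subtracting free RNA at the acinar-like proportion left 16.4 of 748 Reg3b UMIs in C2D ductal-like cells and 29.6 of 59 in S2D. These remainders gave log2 -0.040, C2D over S2D. Counting error did not resolve the size or sign of that ratio, since the C2D interval (0.95 to 1.10 times) included 1.

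**Figure D5:**
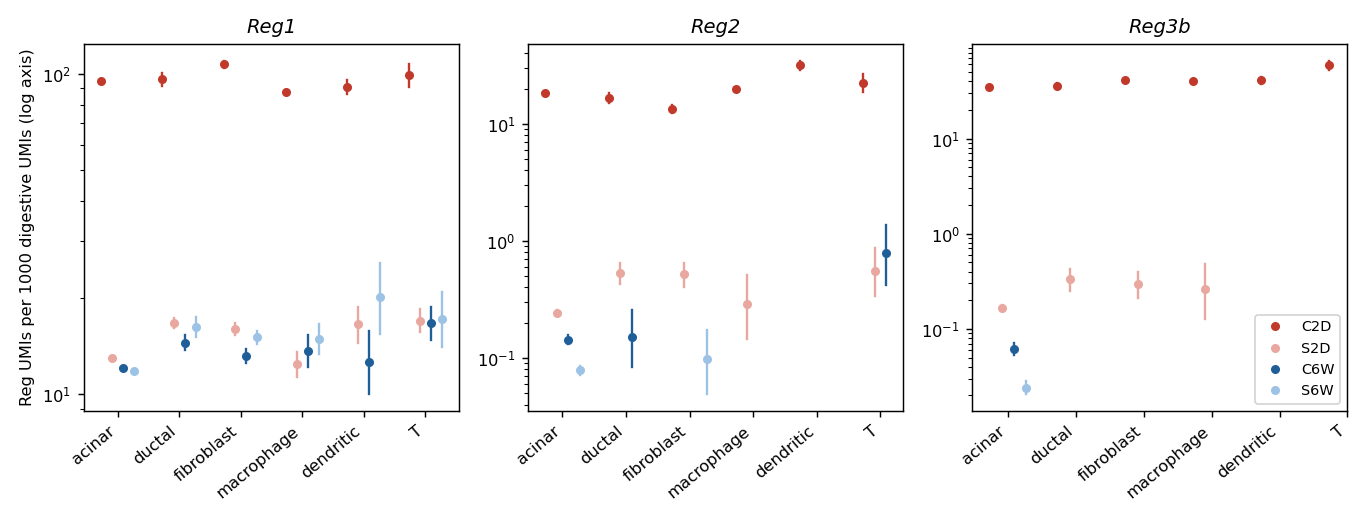
UMIs of Reg1, Reg2 and Reg3b per 1000 digestive UMIs (log axes, each with its own range) in 6 cell classes of C2D, S2D, C6W and S6W, where the class had at least 10 UMIs of the gene; lines are exact 95% Poisson intervals. In C2D, Reg3b stands at 35.2 in acinar-like and 36.0 in ductal-like cells, and the classes of a library lie close together beside the gap between C2D and S2D.

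A list of 35 genes of IL-22, IL-6 and STAT3 signalling, the known upstream route to Reg3 genes, was read in acinar-like cells. In C2D over S2D 16 had enough UMIs, of which 5 were higher and 4 lower, beside the 21.4% and 11.2% of all genes, with a median log2 ratio of 0.31 against 0.24 for all genes. Stat3 stood at 0.40 (-0.11 to 0.95). Il6st, which encodes gp130, was at 1.002 (0.20 to 1.93), and Socs3, the feedback inhibitor, at -1.31 (-1.63 to -0.99). The 3 largest ratios were Il1b, a cytokine of macrophages (2.83, 1.596 to 4.47), Lifr, a gp130 partner (-2.70, -3.12 to -2.28), and Cebpd, a STAT3 target (-2.58, -2.98 to -2.17). Plain CPM called 12 of 16 higher and 0 lower, beside 92.3% and 0.97% of all genes, with Socs3 at 0.98, Lifr at -0.40 and Cebpd at -0.28. Relative to the median of all genes, under either scaling, Socs3 stood at -1.56, Lifr at -2.94, Cebpd at -2.82, Stat3 at 0.16 and Il6st at 0.76.

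Of the 10 receptor genes in the list, 5 had enough UMIs in C2D and S2D together, namely Il6st, Lifr, Il11ra1, Il10rb and Il17rc. Il6ra had 49 UMIs in C2D and 11 in S2D, Osmr 68 and 6, and Il22ra1 4 and 1, too few to compare. Extl3, a putative receptor of Reg proteins, had 0.300 UMIs per cell in C2D and 0.247 in S2D. Its log2 ratio was -2.05 (-2.39 to -1.71) with TMM, 0.24 with plain CPM and -2.29 relative to the median of the genes compared. In C6W over S6W, 6 of the 35 genes could be compared and 0 passed 2-fold, with a median of 0.07 against -0.22 for all genes. Il22 UMIs at 2 days were found in T-like cells, with 1 in C2D (100 cells) and 155 in S2D (182 cells). Osm, a ligand of gp130 receptors, stood at 294.5 CPM in C2D and 55.9 CPM in S2D macrophage-like cells, on 2360 and 86 cells. Il6 went the other way in those cells, at 8.53 CPM in C2D and 37.3 CPM in S2D. In fibroblast-like cells Il6 stood at 494.4 CPM in C2D and 453.4 CPM in S2D, and at 620.1 CPM in C6W and 350.8 CPM in S6W.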

How the data were processed

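Pancreatic cells of 4 groups, 1 library each, were run on the 10x Genomics 3' assay, per the labels' protocols. The deposited matrices hold counts: whole numbers of UMIs for each gene in each barcode that the authors called a cell. Cell Ranger 3.0.2, FastQC and mm10 are given in the submitters' processing notes.

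Cells needed 500 or more UMIs, 200 or more genes and no more than 20% mitochondrial UMIs. Scrublet left out 19 (C2D), 38 (S2D), 32 (C6W) and 15 (S6W) doublets. In C2D that is 0.408%, a rate too low to have worked, so the top scores, 0.8% per 1000 barcodes, were removed in an alternative. Cells were clustered without Reg genes by scanpy 1.11.5 (2000 variable genes, 40 components, 15 neighbours, Leiden resolution 1), and 34 of 35 clusters were named from marker lists, while 1 cluster, of 96 cells, stayed unnamed. Names mean marker-like. Library totals were 71547194 (C2D), 36914373 (S2D), 33788935 (C6W) and 29145886 (S6W) UMIs.

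UMIs were summed per class and library, in classes of at least 50 cells, and scaled by TMM (edgeR 4.0.16, R 4.3.3). Ratios have exact conditional binomial intervals, levels exact Poisson and shares Clopper-Pearson intervals, computed with scipy 1.17.1. Where a library had 0 UMIs of a gene, 3 counts stood in. No p-value was computed, since cells of 1 library are not replicates. The recovery of known 2-fold and 4-fold changes was tested on simulated data. There the TMM factors of C2D and S2D were 1.01 and 0.992, against 2.22 and 0.451 in the real acinar-like sums. The simulation therefore could not test the scaling between C2D and S2D. Alternatives were plain CPM, totals without digestive and Reg genes, DESeq2 1.42.0 size factors, other minimums, filters, doublets, clusterings and thinning. Single clusters, equal weight per cell and shared barcodes were added after seeing the data. Sequences came from GENCODE vM21 transcripts and RefSeq promoters (GRCm38.p6), with all 6 genes matched by symbol. Proteins were not used here.

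The members, lists and marker genes were chosen with earlier results of these data known. Genes were named by rule: the 6 members, the 5 genes most like each over sums, the 5 highest and 5 lowest with Reg3b and Reg2 over C2D cells, 7 receptor and STAT3 genes and the 3 largest ratios of that list, and 4 digestive genes, of which Prss2 and Cela1 are given. Genes outside the rule that are named as leading a cluster, and Il22, Osm and Il6, were chosen after their values were seen.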

Additional observations from a re-analysis of the deposited data

How the results depend on the processing

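No paired analysis was possible because each group was 1 library and the groups share no more than 1 replicate number. With 1 library per group, leaving out a replicate was not possible either. Across the tried settings Reg2, Reg3a, Reg3b and Reg3g stayed at least 2-fold higher in C2D than in S2D acinar-like cells. A count of Reg genes lower in C2D, 0 as reported, was 1 with cells of at least 1000 UMIs, 1 with doublets left out by expected rate, 1 with the S2D cells of cluster 33 alone and 2 with the C2D cells of cluster 7 alone. In C6W over S6W, the number of Reg genes higher was 1 (Reg3b) with plain CPM and 1 (Reg2) with each cell weighted equally, and 3 were lower with S2D as the control. Reg3b in ductal-like cells, C2D over S2D, fell to -0.040 when free RNA was subtracted in proportion to digestive UMIs, a value whose sign counting error did not resolve. The cause was not tested except where fewer genes or cells entered by construction.

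Counts over all genes in acinar-like cells moved more. In C2D over S2D, 1103 genes were higher and 579 lower. These counts were 4757 and 50 with plain CPM, 2188 and 1189 at a minimum of 20 UMIs, 312 and 239 at 400 UMIs, 233 and 75 with cells thinned to 1000 UMIs, and 353 and 195 with cluster 5 alone, and 154 were lower with free RNA subtracted. In C6W over S6W, 33 were higher and 18 lower. These were 100 and 4 with plain CPM, 317 and 279 at 20 UMIs, 4 and 6 at 400 UMIs, 10 and 47 with free RNA subtracted, 1 and 1 with thinned cells, 61 and 109 with each cell weighted equally, and 21 and 8 without barcodes that another library held. With totals without digestive and Reg genes 10 were lower, and with S2D as the control 15 were higher. At 6 weeks depth limits the rarer genes, with 23 to 191 UMIs of Reg3a, Reg3b and Reg3g per library.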
